A study of Rattus norvegicus with 9 samples.

Results

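Reads were counted for 5 genes of the major histocompatibility complex (MHC) class II system in cerebral cortex of ageing rats: RT1-Ba (ENSRNOG00000000451), RT1-Bb (ENSRNOG00000032708), RT1-Da (ENSRNOG00000032844), RT1-Db1 (ENSRNOG00000033215) and Cd74 (ENSRNOG00000018735). These are 5 of the 29516 gene identifiers in the count files. They were chosen because the study lists them as changed between 12 and 28 months in its gene results and, for some, between 6 and 12 months in its transcript results. Those comparisons are therefore given as descriptions with no test, and the comparison of 6 with 28 months, which shares libraries with both, is the one tested.

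The rats were untreated males of the BN strain (substrain BN/SsNOlaHSD), fed freely and killed at 6, 12 or 28 months. There were 3 libraries at each age, each made from ribosomal-depleted total RNA pooled from 2 rats, so 6 rats stood behind each age and no value belongs to 1 animal. The whole cortex was sampled, with no sorting of cells. The file of 6 months sample 2 and that of 12 months sample 3 differed at 0 of the 29516 identifiers. They were counted as 1 library, called the shared library here, which leaves 8 independent libraries, with 2 labelled only 6 months and 2 labelled only 12 months. Which of these ages it came from was not determined. Gene reads per library ranged from 6513376 to 9196951, and the most abundant identifier took 44.0% to 52.4% of them. All 5 genes passed the filter of at least 5 reads in at least 1 library compared.

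MHC class II molecules are pairs of an alpha and a beta chain at the surface of antigen-presenting cells, where they show peptides from engulfed material to helper T cells. In the rat, RT1-Ba and RT1-Bb encode the chains of the B molecule and RT1-Da and RT1-Db1 those of the D molecule. Cd74 encodes the invariant chain, which holds new class II molecules until they reach the compartment where peptide is loaded. In brain, class II is known mainly from microglia and from macrophages at the vessels and meninges, at low levels in health. The genes are switched on together by the coactivator CIITA, which is recruited by factors bound to the X and Y boxes of their promoters.

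The promoters are shown because the 5 genes moved together and share this known control. Each stretch is the 180 bases before the start used by the RefSeq promoter table on build GRCr8, 5′ to 3′ on the gene's own strand. That start lies inside the gene span of the RefSeq gene table for Cd74, RT1-Da and RT1-Db1, so 135, 22 and 20 of their printed bases fall within the gene, and distances are counted from it. It lies at chr20:4576877-4577056 on the plus strand for RT1-Ba and at chr20:4604119-4604298 on the minus strand for RT1-Bb. For RT1-Da it is chr20:4515235-4515414 on the plus strand, for RT1-Db1 chr20:4560163-4560342 on the minus strand and for Cd74 chr18:56527026-56527205 on the plus strand. The count files used build rn4, so these positions do not apply to them. Capitals mark matches on either strand to ATTGG (Y box core), CGTCA (X2 box core) or AGNAAC (X1 box core), and the CGTCA matches on the 2 strands in RT1-Ba overlap.
RT1-Ba: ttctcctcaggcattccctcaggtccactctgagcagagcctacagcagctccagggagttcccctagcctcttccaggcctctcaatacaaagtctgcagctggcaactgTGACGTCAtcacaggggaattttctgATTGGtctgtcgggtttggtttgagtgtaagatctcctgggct
RT1-Bb: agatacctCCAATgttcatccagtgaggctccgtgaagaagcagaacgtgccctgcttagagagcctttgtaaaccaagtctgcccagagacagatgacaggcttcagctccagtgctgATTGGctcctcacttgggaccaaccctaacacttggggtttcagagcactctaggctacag
RT1-Da: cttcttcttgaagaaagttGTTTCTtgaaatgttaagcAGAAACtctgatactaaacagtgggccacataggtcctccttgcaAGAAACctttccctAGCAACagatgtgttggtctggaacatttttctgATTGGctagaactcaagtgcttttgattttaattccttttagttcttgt
RT1-Db1: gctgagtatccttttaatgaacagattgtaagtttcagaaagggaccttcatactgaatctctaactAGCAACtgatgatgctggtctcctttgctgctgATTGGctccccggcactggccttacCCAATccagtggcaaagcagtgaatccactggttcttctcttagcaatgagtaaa
Cd74: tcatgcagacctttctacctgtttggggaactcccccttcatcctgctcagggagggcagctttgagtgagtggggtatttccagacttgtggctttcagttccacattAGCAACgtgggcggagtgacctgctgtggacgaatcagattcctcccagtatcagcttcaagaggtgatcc

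The window searched ran from 250 bases before the start to 50 after it. ATTGG was found in 5 of 5 promoters, against 37.5% of the 33469 RefSeq promoters of that length. In the 4 chain genes a forward match lay at -43 (RT1-Ba), -61 (RT1-Bb), -49 (RT1-Da) and -80 (RT1-Db1), and in Cd74 a reverse match began at -189, outside the stretch printed. AGNAAC was found in 4 of 5, in each but RT1-Ba, against 48.6% of promoters. No mismatch was allowed, and in RT1-Bb the match began at -186, outside the stretch printed. CGTCA was found in RT1-Ba alone, against 21.2%. The longest run shared by the 4 chain promoters, picked after the sequences were seen, was the 8 bases CTGATTGG, which 1.83% of promoters hold. A match to so short a motif is a description of letters, and no binding was measured.

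**Figure D1:**
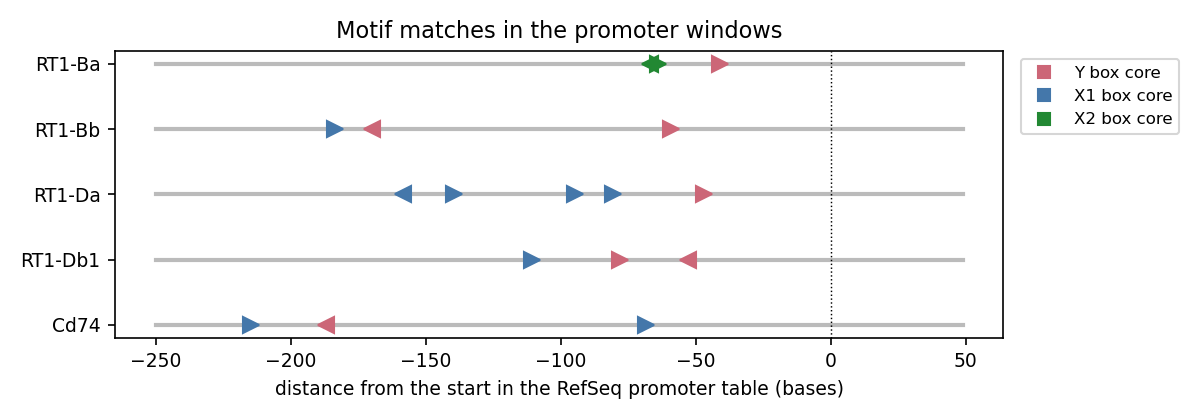
Matches to the 3 motifs in the 5 promoter windows, with distance from the start in the RefSeq promoter table in bases on the x axis and 1 gene per row. Arrows point right for the gene's own strand and left for the opposite strand. The 4 chain genes each hold a right-pointing Y box match between -80 and -39.

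The class II chains are related in sequence, so the stretches that were amplified from some of these genes in quantitative PCR are shown. They are amplicons of 69 bases for RT1-Bb, 76 for RT1-Da, 130 for RT1-Db1 and 91 for Cd74.
RT1-Bb: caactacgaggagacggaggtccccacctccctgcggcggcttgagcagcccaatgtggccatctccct
RT1-Da: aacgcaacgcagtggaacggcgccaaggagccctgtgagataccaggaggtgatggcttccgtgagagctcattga
RT1-Db1: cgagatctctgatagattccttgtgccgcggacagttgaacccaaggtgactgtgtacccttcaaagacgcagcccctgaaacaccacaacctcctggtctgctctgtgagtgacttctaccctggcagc
Cd74: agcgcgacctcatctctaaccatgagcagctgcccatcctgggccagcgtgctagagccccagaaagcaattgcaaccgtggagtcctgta
The longest run of bases common to any pair of these amplicons was 8, between Cd74 and RT1-Bb, and the other pairs shared 6 or 7. Whether the amplicons come from matching parts of the genes was not checked, so these runs do not show how alike the chains are. Whether reads of the related chains were mapped to each other's genes was not tested.

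RT1-Ba, the alpha chain of the B molecule, had 6.69 and 3.35 CPM (normalized counts, scaled for library size by trimmed mean of M-values) in 6 months samples 1 and 3. Its level was 29.2 and 47.4 CPM in the libraries labelled only 12 months, 32.5 in the shared library, and 10.1, 10.6 and 10.02 in the 3 libraries of 28 months (mean 10.2 ± 0.29, SD, n = 3). The 28 months libraries lay above both 6 months libraries and below both 12 months libraries, with no overlap, and the shared library lay between the 12 months ones. These levels rest on 29 to 342 reads per library.

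RT1-Da, the alpha chain of the D molecule, had 2.96 and 3.00 CPM at 6 months and 21.1 and 38.6 at 12 months. The shared library had 25.1 CPM and the 28 months libraries 7.36, 10 and 5.77 (mean 7.71 ± 2.14, SD, n = 3). The order of ages was that of RT1-Ba, again without overlap. The lowest library held 26 reads and the highest 279.

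RT1-Bb, the beta chain of the B molecule, was the gene with fewest reads, from 7 to 123. Its CPM was 0.767 and 1.85 at 6 months, 9.03 and 17.0 at 12 months, 8.99 in the shared library, and 2.74, 4.72 and 2.28 at 28 months (mean 3.25 ± 1.30, SD, n = 3). Its 2 libraries of 6 months differed from each other more, relative to their level, than those of RT1-Da.

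RT1-Db1, the beta chain of the D molecule, had 3.07 and 1.501 CPM at 6 months, 16.6 and 23.3 at 12 months and 16.4 in the shared library. At 28 months it had 3.24, 5.56 and 3.95 (mean 4.25 ± 1.19, SD, n = 3). The gap between ages was smallest here, since 28 months sample 1 (3.24) lay just above 6 months sample 1 (3.07), on 26 and 28 reads. The order of this pair depended on the scaling between libraries.

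Cd74, the invariant chain, had 5.15 and 5.08 CPM at 6 months, 28.5 and 36.2 at 12 months, 23.5 in the shared library, and 7.23, 12.9 and 6.99 at 28 months (mean 9.05 ± 3.36, SD, n = 3). Its highest library was 7.12 times its lowest, against 13.1 to 22.2 times for the 4 chains. Summed over the 5 genes, the level was 18.6 and 14.8 CPM at 6 months, 104.5 and 162.4 at 12 months, 106.5 in the shared library and 30.7, 43.8 and 29.0 at 28 months. For every one of the 5 genes, 6 months samples 1 and 3 took the lowest 2 places, the 28 months libraries the next 3, and 12 months sample 2 the highest. Over all genes, without the shared library, 28 months lay above 6 months with no overlap for 10.8%, and below 12 months for 13.2%. Since the 5 genes were chosen on comparisons of these ages, nothing is read from this order. In whole tissue, fewer cells that express these genes and less RNA per cell cannot be told apart.

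**Figure D2:**
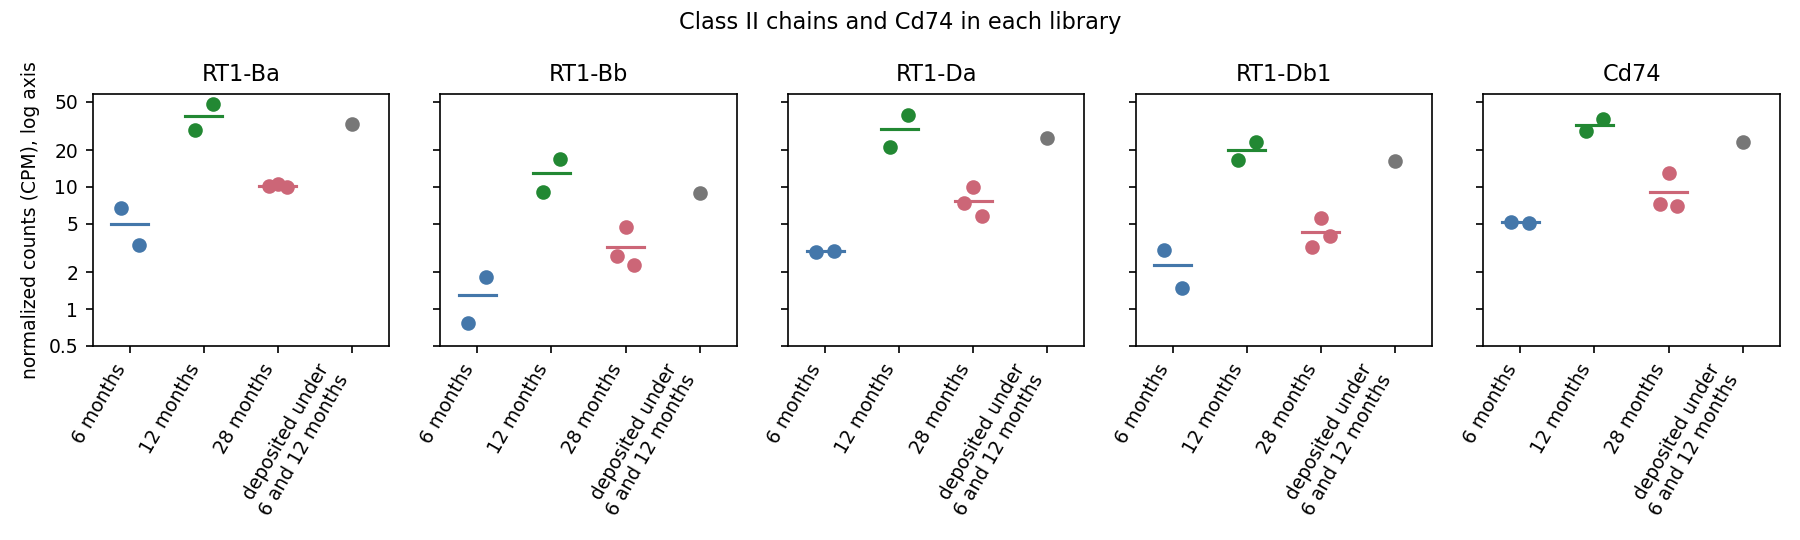
Normalized counts (CPM, log axis) of the 5 genes in each of the 8 independent libraries, by age, with horizontal lines at the mean of each age and the shared library shown apart. In every panel the 28 months points sit above the 6 months points and below the 12 months points, and the shared library (8.99 to 32.5 CPM) sits far above the 6 months points.

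From 12 to 28 months, with 3 libraries at each age as labelled, every chain and Cd74 was lower at 28 months. The log2 fold change (log2FC) was -1.82 (SE 0.206) for RT1-Ba, -1.83 (SE 0.336) for RT1-Bb, -1.86 (SE 0.264) for RT1-Da, -2.14 (SE 0.249) for RT1-Db1 and -1.69 (SE 0.256) for Cd74. Their median was -1.83, while the median of all 15992 genes was -0.005. Without the shared library the values were -1.89, -1.99, -1.94, -2.22 and -1.82 in the same order. The libraries of the 2 ages did not overlap for 5 of 5 genes, which held for 5.44% of all genes in this direction, and for 13.2% without the shared library. Since the genes were chosen on this comparison, nothing is read from these counts.

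From 6 to 12 months the size of the difference depended on the shared library, which stands at both ages. As labelled, log2FC was 1.38 (SE 0.658) for RT1-Ba, 1.65 (SE 0.680) for RT1-Bb, 1.48 (SE 0.713) for RT1-Da, 1.46 (SE 0.666) for RT1-Db1 and 1.41 (SE 0.531) for Cd74. The same counts entered this fit at both ages, so these SEs do not measure the spread between independent libraries. Without the shared library, with 2 libraries an age, log2FC was 2.91 (SE 0.334), 3.31 (SE 0.439), 3.31 (SE 0.319), 3.10 (SE 0.327) and 2.65 (SE 0.205). The median of the 5 went from 1.46 to 3.10, and that of all genes was -0.002 and -0.01. Without it, 12 months lay above 6 months with no overlap for 5 of 5 genes, against 23.1% of all genes. Since some of the genes were chosen on this comparison, nothing is read from this count.

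The comparison of 6 with 28 months was tested by the quasi-likelihood method of edgeR, and p-values were adjusted (Benjamini-Hochberg) over all genes tested. As labelled, 0 of 5 genes had an adjusted p under 0.05, against 0.111% of all 16172 genes, and 0 of 5 had an unadjusted p under 0.05, against 2.42%. The log2FC values were all below 0, at -0.44 (SE 0.618) for RT1-Ba, -0.19 (SE 0.692) for RT1-Bb, -0.39 (SE 0.685) for RT1-Da, -0.68 (SE 0.684) for RT1-Db1 and -0.28 (SE 0.533) for Cd74, each with an adjusted p of 1. Each was smaller than its standard error, so no difference was detectable with these libraries.

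Leaving out the shared library turned the sign of all 5. RT1-Da then had a log2FC of 1.37 (SE 0.306, adjusted p = 0.201), RT1-Bb 1.32 (SE 0.489, adjusted p = 0.671) and RT1-Ba 1.02 (SE 0.288, adjusted p = 0.437). RT1-Db1 had 0.88 (SE 0.396, adjusted p = 0.768) and Cd74 0.82 (SE 0.306, adjusted p = 0.671). None passed the adjusted threshold, as 0.206% of the 16042 genes tested did. At an unadjusted p under 0.05, 5 of 5 were higher at 28 months, against 3.15% of all genes, and in 5 of 5 the libraries of the 2 ages did not overlap, against 10.8%. edgeR's exact test without the shared library, added after the data were seen, called RT1-Da alone of the 5 (adjusted p = 0.0142), against 0.854% of all genes. DESeq2 without it called 0 of the 4 that it gave an adjusted p (RT1-Bb had none), against 0.711% of genes given one, and 4 of 5 had an unadjusted p under 0.05, against 3.72%. This comparison rests on 2 libraries of 6 months. It shares libraries with the comparisons on which the genes were chosen, and the 5 genes moved together. They are therefore not 5 separate observations, and nothing is read from these counts.

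**Figure D3:**
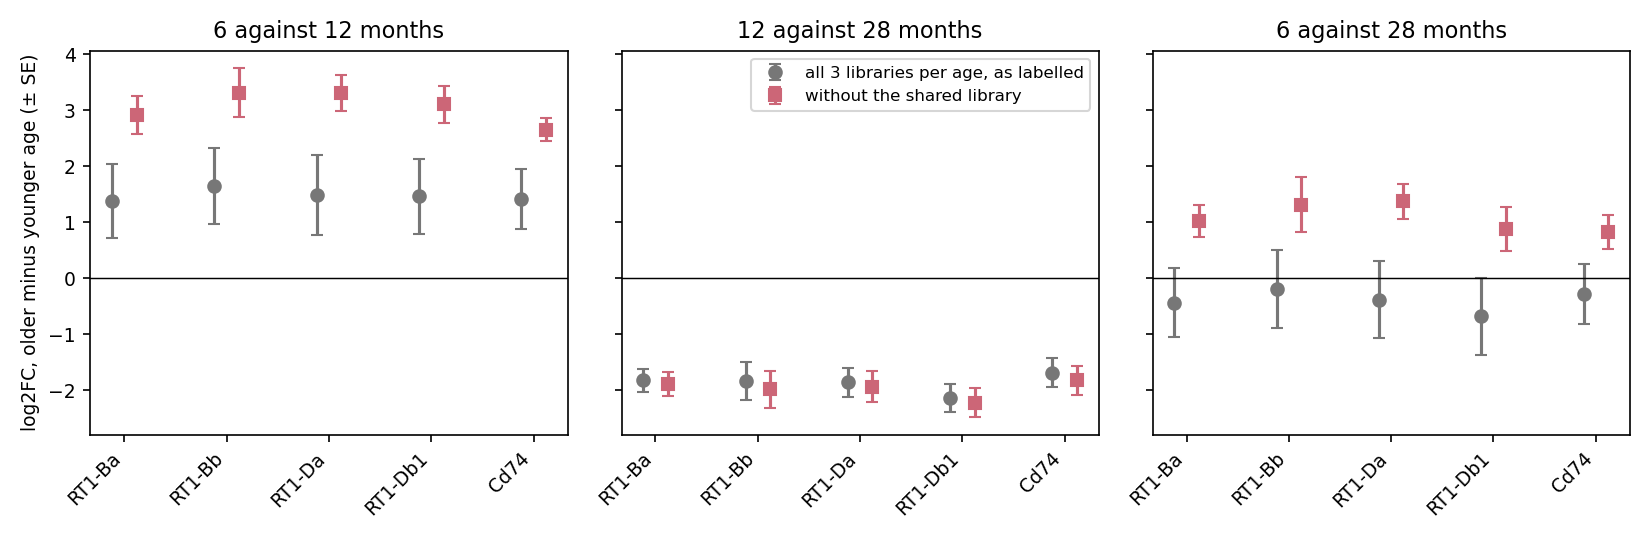
Log2FC (older minus younger age, ± SE) of the 5 genes in the 3 pairs of ages, with all libraries as labelled (circles) and without the shared library (squares). The 12 to 28 months values hardly move, the 6 to 12 months values go from between 1.38 and 1.65 to between 2.65 and 3.31, and the 6 to 28 months values change sign. In the 6 to 12 months circles the shared library counts at both ages, so their SEs do not measure the spread between independent libraries.

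The way the reads of the 5 genes divided among them varied between libraries. RT1-Ba took 22.7% (6 months sample 3) to 35.9% (6 months sample 1) of the reads of the 5 genes, Cd74 22.0% to 34.4%, RT1-Da 15.9% to 24.0%, RT1-Db1 10.2% to 16.5% and RT1-Bb 4.12% to 12.5%. The extremes mostly stood in the 2 libraries of 6 months, where the 5 genes had only 170 and 128 reads. The RT1-Bb share there was 4.12% (95% Wilson interval 2.01% to 8.25%) and 12.5% (7.84% to 19.3%), and these intervals overlap, but the first lies below the 10.5% (8.86% to 12.4%) of 12 months sample 2. The Cd74 share of 34.4% (26.7% to 43.0%) in 6 months sample 3 lay above the 22.0% (19.2% to 25.1%) of the shared library and the 22.3% (20.0% to 24.7%) of 12 months sample 2, with no overlap of intervals. Intervals cover counting error only. The reads of RT1-Ba divided by those of RT1-Bb ranged from 1.81 to 8.71, both in libraries of 6 months, and those of RT1-Da divided by those of RT1-Db1 from 0.964 to 2.27. The reads of the B chains divided by those of the D chains ranged from 0.982 to 1.27, and the reads of Cd74 divided by those of the 4 chains from 0.283 to 0.524. These are ratios of reads, not corrected for gene length, so they do not compare the amounts of the RNAs within a library.

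**Figure D4:**
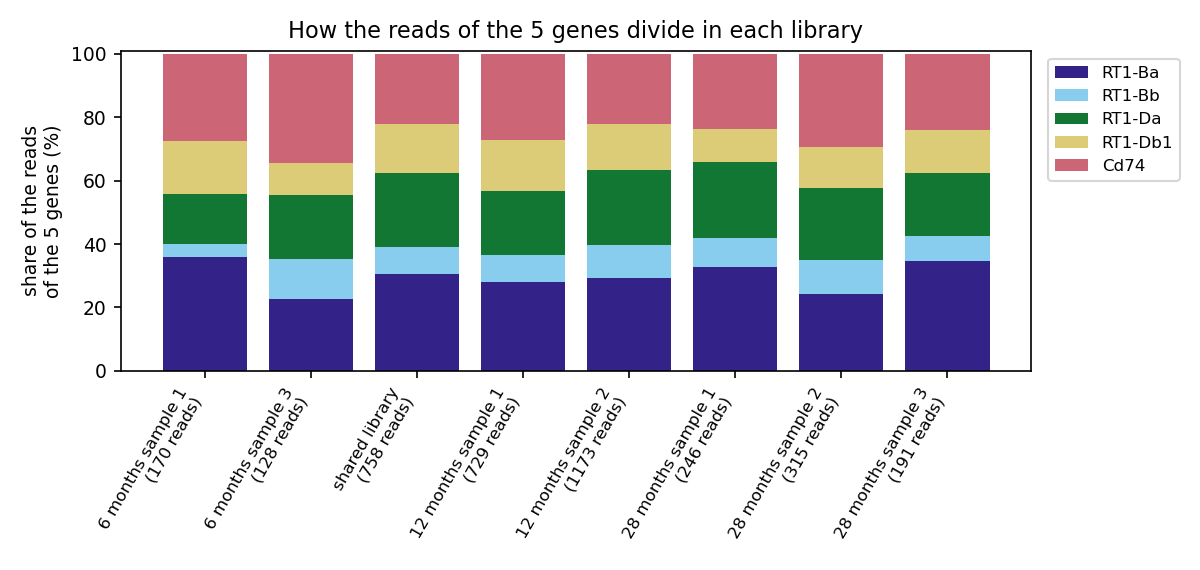
Share (%) of the reads of the 5 genes that belonged to each gene, 1 stacked bar per independent library, with the number of reads under each. The reads divided range from 128 to 1173, the RT1-Bb share is thinnest (4.12%) in 6 months sample 1, and the Cd74 share is widest (34.4%) in 6 months sample 3.

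Over the 8 libraries the log2 CPM values of any pair of the 5 genes had a Pearson r between 0.898 (RT1-Ba with RT1-Bb) and 0.986 (RT1-Ba with RT1-Db1). The libraries fall into ages, so these correlations describe that pattern and carry no p. Among 10963 other genes averaging 20 reads or more per library, the median r with the mean of the 5 was -0.02, and 25 genes (0.228%) had an r of at least 0.9. The 10 most alike had no gene name at hand. The first, ENSRNOG00000014154, had an r of 0.970 with a level of 25.2 to 36.8 CPM, a much narrower range than the class II genes, and the next, ENSRNOG00000038999, an r of 0.954 with 12.1 to 27.2 CPM. Which genes ranked highest depended on the libraries, since only 2 of these 10 stayed among the 10 highest without the shared library.

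Of the other genes of class II presentation, Ctsd, a lysosomal protease, was the one with a name at hand. Its level was 44.9 and 50.4 CPM at 6 months, 59.4 and 66.5 at 12 months, 51.0 in the shared library and 44.7 to 53.7 at 28 months, so both 12 months libraries lay above every 6 and 28 months library, and 6 and 28 months overlapped. Its 12 to 28 months log2FC was -0.28 (SE 0.160). E9PSV0_RAT, complement component 4 and part of the cascade that tags targets for engulfment, had 0.986 and 0.808 CPM at 6 months, 6.59 and 4.02 at 12 months, 5.20 in the shared library and 0.748, 2.36 and 1.52 at 28 months. Its r with the 5 genes was 0.910. Ifi27, an interferon-induced gene, had an r of 0.887 and a 12 to 28 months log2FC of -1.12 (SE 0.247). The study lists E9PSV0_RAT and Ifi27 as lower at 28 than at 12 months in these same libraries. Their likeness to the 5 genes is therefore not independent of how they came to be named.

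Markers of other cells were read beside these values, for genes with an identifier at hand. The study lists Aif1, Gfap, Tf, LOC689064, Alb and Apob as lower at 28 than at 12 months in these same libraries. Their likeness to the 5 genes was therefore partly fixed by that choice. Aif1, a calcium-binding protein of microglia and macrophages, had 5.70 and 5.19 CPM at 6 months, 9.03 and 8.86 at 12 months, 4.92 in the shared library and 3.49, 2.501 and 2.73 at 28 months. Its 6 to 28 months log2FC was -0.85 (SE 0.260, adjusted p = 1) as labelled and -0.90 (SE 0.292, adjusted p = 0.585) without the shared library, so it did not pass the test. Its sign was that of the class II genes as labelled and the opposite of theirs without the shared library, and the difference between them was not tested. Aif1 with Fcgr3a, an Fc receptor of macrophages, summed to 5.77 to 7.67 CPM at 6 months, 10.3 to 13.3 at 12, 3.34 to 4.86 at 28 and 7.02 in the shared library, with neither gene at 0 in any library. Fcgr3a alone rested on 5 to 30 reads. It overlapped between 6 months (1.973 CPM in sample 1) and 12 months (1.385 in sample 2).

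Blood and plasma genes (LOC689064, Alb, Apob and Gc) summed to 23.7 to 32.1 CPM at 6 months, 48.5 to 56.5 at 12, 20.7 to 29.9 at 28 and 78.2 in the shared library, with 2 of the 4 at 0 in some library. Most of each sum was LOC689064, a hemoglobin subunit, at 17.3 to 65.2 CPM, and its r with the 5 genes was 0.623. The r was 0.945 for Alb (serum albumin), 0.897 for Apob and 0.851 for Gc. Alb rested on 3 to 51 reads, and Alb, Apob and Gc had too few reads on average to be among the genes ranked by r. From 6 to 28 months without the shared library, log2FC was -0.284 (SE 0.236) for LOC689064. It was 1.86 (SE 0.691) for Alb and 1.42 (SE 1.11) for Apob, and Gc was not tested. Gfap, the intermediate filament of astrocytes, had 72.9 and 89.8 CPM at 6 months, 145.8 and 155.5 at 12, 52.9 to 77.4 at 28 and 151.8 in the shared library. The choroid plexus and meninges pair Lrp2 and Sema3b summed to 0.767 to 2.19, 4.01 to 4.29, 1.25 to 2.13 and 6.46 CPM in the same order. The pair differed, with an r of 0.499 for Lrp2, on 1 to 32 reads, and 0.948 for Sema3b, on 4 to 21. Lrp2 overlapped between 6 months (1.73 CPM in sample 3) and 12 months (1.003 in sample 1). From 6 to 28 months without the shared library, log2FC was -0.897 (SE 0.928) for Lrp2 and 1.104 (SE 0.625) for Sema3b. Tf, the transferrin of oligodendrocytes, had 128.7 to 161.1 CPM at 6 months, 208.0 to 210.9 at 12, 85.7 to 127.6 at 28 and 198.2 in the shared library. The sum of 4 cortical neuron genes (Nptxr, Arc, Egr3 and Gria2) was 1065 to 1090 CPM at 6 months, 889 to 1134 at 12, 1068 to 1153 at 28 and 881 in the shared library. Most of that sum was Gria2, an AMPA receptor subunit, at 767 to 966 CPM. Egr3, an activity-induced transcription factor, had an r of -0.91 with the class II genes and a 12 to 28 months log2FC of 0.85 (SE 0.242), and Nptxr, the neuronal pentraxin receptor, an r of -0.59 and a log2FC of 0.60 (SE 0.223). Arc went the other way in that comparison, with a log2FC of -0.228 (SE 0.368) and an r of -0.38. Gria2 had a log2FC of 0.175 (SE 0.160) and an r of -0.48. These genes mark neurons and do not tell cortex from other brain regions. Tph1, an enzyme of serotonin and melatonin synthesis abundant in the pineal gland, had 147 reads (20.7 CPM) in the shared library and at most 1.11 CPM elsewhere. The part of blood, meninges, glia, neurons or pineal tissue in the class II values was not tested.

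From 6 to 28 months, 0 of these 18 genes passed the adjusted threshold as labelled, and 0 of the 16 tested without the shared library. At an unadjusted p under 0.05 as labelled 5 were lower (Aif1, Gfap, Tph1, Tf and LOC689064) and 0 higher, and without it 2 were lower (Aif1 and Arc) and 1 was higher (Alb). Over all genes, 2.42% passed that level in either direction as labelled and 6.45% without the shared library. Names were at hand only for genes in the study's supplementary lists, which largely report changes with age in these same libraries. The 18 genes were thus partly chosen on these data, and nothing is read from these counts.

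**Figure D5:**
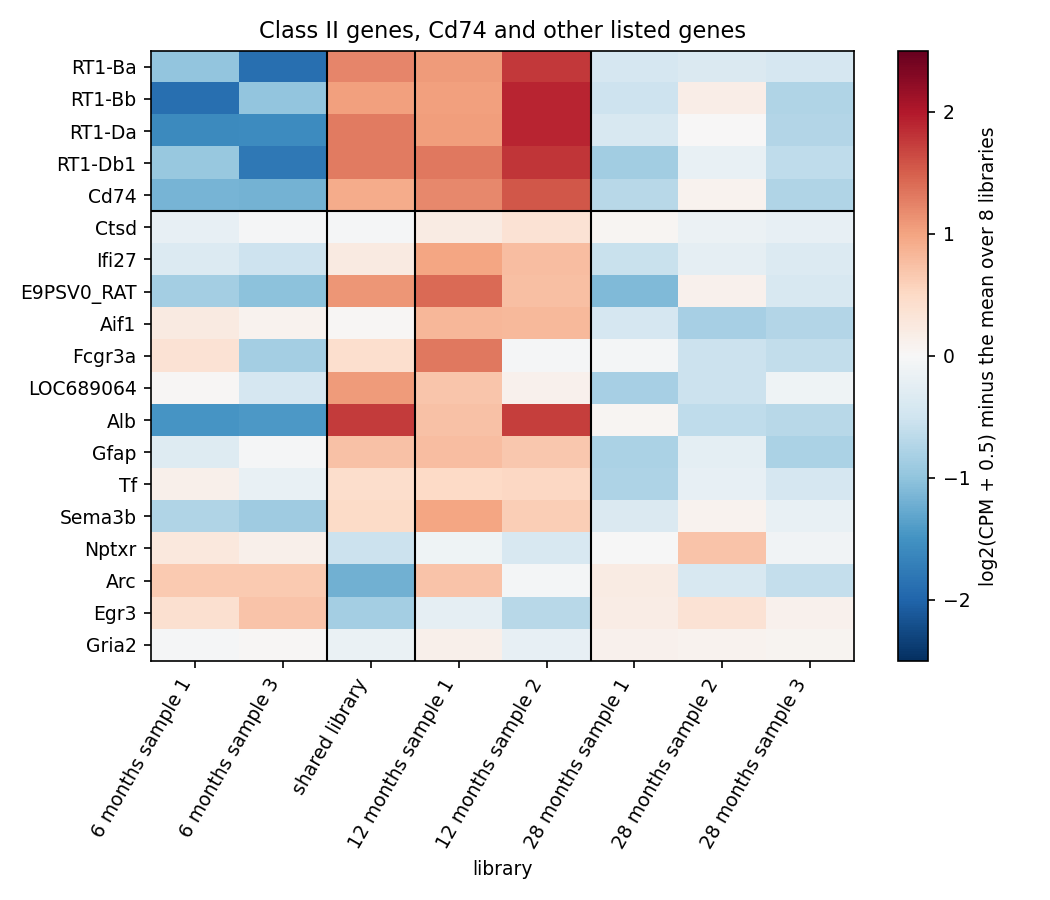
Log2(CPM + 0.5) minus its mean over the 8 libraries, for the 5 genes (top) and other listed genes, with libraries in columns and red above and blue below the gene's mean. The class II genes and Cd74 are red in the shared library and both 12 months libraries, as are Alb, E9PSV0_RAT and Gfap, while Egr3 is blue there.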

How the data were processed

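Per the labels, RNA of cerebral cortex was pooled from 2 rats a library, depleted of ribosomal RNA and sequenced on the SOLiD system. The deposited values are raw read counts per Ensembl gene, made by the authors with Bowtie and HTSeq on build rn4; versions and the strand setting are not given in the sources used here. Rows naming no gene (no-feature reads, 47.5% to 60.0% of mapped reads, and ambiguous reads) were left out.

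Each pair of ages was fitted on its own with edgeR 4.0.16 (R 4.3.3): TMM, at least 5 reads in at least 1 library, glmQLFTest, Benjamini-Hochberg adjustment, threshold 0.05. SE is the absolute log2FC divided by the square root of F. DESeq2 1.42.0 was an alternative. The fits were tested on simulated data. Correlations used log2 CPM with a prior count of 2. p-values measure the spread between pools.

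The members, gene lists and motifs were chosen with earlier results of these data known. Genes were named if they were members, listed with an identifier, or among the 10 most alike, with at most 2 unnamed identifiers printed. Names came from the study's supplementary lists (143 identifiers), because the RefSeq table paired 0. Promoters are from RefSeq (GRCr8), with 5 of 5 genes matched. Levels were not compared between genes. A listed gene is not reported here.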

Additional observations from a re-analysis of the deposited data

How the results depend on the processing

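The 12 to 28 months values of the 5 genes kept their direction under all 13 alternatives, with a median log2FC between -2.10 and -1.58. Of these, leaving out the shared library and leaving out 12 months sample 3 were the same fit. The other 2 comparisons turned on the shared library. From 6 to 12 months the median of 1.46 became 3.10 without it and 3.11 in 1 fit over 8 libraries with it as a group of its own, and leaving out 1 library in turn gave 1.03 to 3.01. From 6 to 28 months the main log2FC values reversed without the shared library (alpha chains RT1-Ba 1.02 and RT1-Da 1.37, beta chains RT1-Bb 1.32 and RT1-Db1 0.88, Cd74 0.82, median 1.02), in the fit over 8 libraries (in that order 1.02, 1.37, 1.32, 0.88, 0.82, median 1.02), with DESeq2 without it (1.03, 1.38, 1.32, 0.89, 0.83, median 1.03) and with edgeR's exact test without it (1.02, 1.37, 1.32, 0.88, 0.82, median 1.02). The last 2 were chosen after seeing the data, and the exact test called 1 gene (RT1-Da) where the 15 other alternatives called 0. Leaving out the shared library and leaving out 6 months sample 2 were the same fit here, so these were not 15 separate checks. Leaving out 1 library in turn gave -0.91 to 1.02 for RT1-Ba, -0.84 to 1.37 for RT1-Da, -0.70 to 1.32 for RT1-Bb, -1.17 to 0.88 for RT1-Db1, -0.64 to 0.82 for Cd74 and -0.83 to 1.02 for the median, with 0 calls, and the high end was in each case without the shared library. RT1-Bb was lost from the comparisons with 6 months when 10 reads were required in every library. All genes passing the adjusted threshold from 6 to 28 months numbered 18 as labelled, 33 without the shared library, 37 with the exact test and 137 with the exact test without the shared library, and between 0 and 33 when 1 library was left out. Of the 10 genes most like the members, 2 to 7 remained under the alternatives. The planned division by coding length was not run, as no lengths were at hand. With 7 to 64 reads of RT1-Bb in most libraries, counting error limits small differences.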
